A study of Homo sapiens with 2 samples.

Results

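Epithelial-mesenchymal transition (EMT) genes were followed in RKO, an established cell line from a human colorectal carcinoma, in which hnRNPU had been knocked down. This protein binds RNA and chromatin in the nucleus. The 10 genes were VIM, ZEB1, ZEB2, SNAI1, SNAI2, TWIST1, FN1, CDH2, EMP1 and MMP1, each taken from the deposited expression table by its symbol, out of 40205 listed genes. RNA came from 1 sample transfected with an siRNA against hnRNPU (sihnRNPU) and 1 transfected with a control siRNA (siNC), and both were otherwise unmodified RKO cells as far as the labels say. The sources used here do not give the siRNA sequences, doses or times. Each condition had 1 library, so differences could not be checked against replicates and no test between the conditions was possible, and "higher" and "lower" describe these 2 libraries. In bulk RNA, fewer cells of a kind and less RNA per cell cannot be told apart.

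During EMT, epithelial cells loosen their junctions and take on a mesenchymal, motile state. The transcription factors ZEB1, ZEB2, SNAI1, SNAI2 and TWIST1 bind E-box sequences and repress epithelial genes such as CDH1, which encodes E-cadherin. VIM (the intermediate filament protein vimentin), FN1 (the matrix protein fibronectin) and CDH2 (N-cadherin) are classical mesenchymal markers. MMP1 encodes an interstitial collagenase and EMP1 a small membrane protein with several membrane-spanning segments, of the family that also holds PMP22.

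The libraries rested on 39807025 reads for sihnRNPU and 31801650 for siNC, recovered from the steps between low FPKM values (fragments per kilobase of gene length, scaled to depth). HNRNPU itself stood at 75.4 FPKM in the sihnRNPU library, against 239 FPKM in the siNC library, 31.5% of the control level. Of 10 colon epithelial markers, 5 were listed at 0 in both libraries, among them CDH1, KRT19 and KRT20, while EPCAM stood at 13.7 FPKM in the sihnRNPU library and 13.8 FPKM in the siNC library. The highest of the 10 was the keratin gene KRT18, at 81.6 FPKM with sihnRNPU and 88.1 FPKM with siNC. Fibroblast, endothelial and blood markers, 18 genes in all, summed to at most 0.0208 FPKM per list in the sihnRNPU library and at most 0.0287 FPKM in the siNC library. Of 40 housekeeping genes looked up, none was at 0 in either library, and the lowest value was 5.25 FPKM.

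Promoter windows of the 2 most abundant of the 10 genes are shown, EMP1 because it differed most between the libraries and ZEB1 because its product binds the E-box. They were taken from RefSeq (GRCh38.p14) and run from 250 bases before to 50 after an annotated start. The motifs searched, on both strands, were the E-box CAGGTG bound by ZEB and SNAIL factors and the AP-1 site TGAGTCA. Capitals mark a match. The EMP1 window lies on the plus strand at chr12:13196476-13196775 and has 1 AP-1 match, at position -175 from the start. The ZEB1 window lies on the plus strand at chr10:31318966-31319265 and has 3 E-box matches. It is shown as the 1 of 7 annotated ZEB1 windows with the most E-boxes, and 2 of the 7 held any.
EMP1: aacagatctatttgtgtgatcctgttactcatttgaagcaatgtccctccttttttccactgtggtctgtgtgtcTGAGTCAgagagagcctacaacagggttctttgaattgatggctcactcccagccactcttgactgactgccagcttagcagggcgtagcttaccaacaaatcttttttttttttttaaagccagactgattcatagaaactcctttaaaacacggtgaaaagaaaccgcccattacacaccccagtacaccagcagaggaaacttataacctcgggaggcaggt
ZEB1: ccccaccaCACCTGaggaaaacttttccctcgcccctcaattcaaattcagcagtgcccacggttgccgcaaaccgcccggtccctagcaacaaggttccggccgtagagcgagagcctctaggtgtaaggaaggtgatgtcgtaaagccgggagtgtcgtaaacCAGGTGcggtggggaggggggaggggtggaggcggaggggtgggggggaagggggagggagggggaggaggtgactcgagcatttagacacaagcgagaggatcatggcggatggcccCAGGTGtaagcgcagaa

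Windows were scanned for 6 of the 10 genes, 13 windows in all. SNAI1, SNAI2, TWIST1 and MMP1 were not scanned, so whether their promoters hold either motif is not known here. Of the scanned windows, 2 held an E-box, both of ZEB1, and 1 held an AP-1 site, that of EMP1. Across 35116 RefSeq windows, 20.6% held an E-box and 4.95% held an AP-1 site. A match describes the letters in the window and is not evidence of binding.

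At baseline the 10 genes fell into 3 levels, shown in the plot of FPKM by gene. In the siNC library ZEB1 and EMP1 were abundant, VIM, SNAI1 and MMP1 lay near 1 to 4 FPKM, and the remaining 5 were listed at 0. ZEB1 exceeded 97.7% of 19756 listed mRNAs in the sihnRNPU library and 98.1% in the siNC library. EMP1 exceeded 82.1% in the sihnRNPU library and 95.1% in the siNC library. ZEB1 stood 37.5-fold above VIM in the sihnRNPU library and 36.0-fold above it in the siNC library, on the length-scaled FPKM measure. The counting intervals of SNAI1 and MMP1 overlapped in both libraries. In the sihnRNPU library the 95% Poisson counting intervals of their levels were 1.17 to 1.76 FPKM for SNAI1 and 1.57 to 2.18 FPKM for MMP1. In the siNC library they were 1.02 to 1.65 FPKM for SNAI1 and 0.701 to 1.18 FPKM for MMP1. SNAI1 lay below MMP1 in the sihnRNPU library and above it in the siNC library. Each of the values lay outside the interval of the other gene, so the overlap does not settle the order, which was not tested. The intervals of ZEB1, EMP1 and VIM overlapped with no other of the 10 genes in either library.

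**Figure D1:**
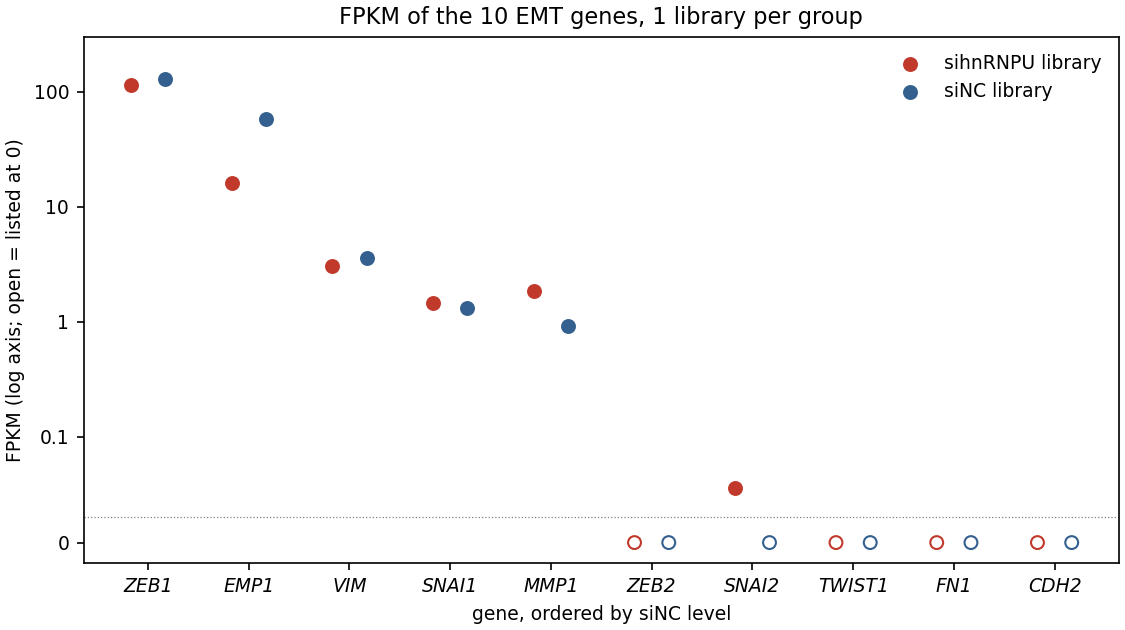
FPKM (log axis) of the 10 EMT genes in the sihnRNPU library (red) and the siNC library (blue), 1 library each, ordered by the siNC level. Open circles below the dotted line are genes listed at 0. EMP1 shows the widest gap, 16.0 FPKM with sihnRNPU against 57.5 FPKM with siNC, while ZEB1 stays above 100 FPKM in both.

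ZEB1, the E-box repressor with the highest level of the 10 genes, was close between the libraries. It stood at 114 FPKM in the sihnRNPU library, against 129 FPKM in the siNC library. The FPKM ratio of sihnRNPU over siNC was 0.888, with an exact 95% Clopper-Pearson counting interval of 0.873 to 0.903, and the log2 ratio of (FPKM + 1) was -0.17. Counting intervals cover counting error only. ZEB1 rested on 29496 recovered reads in the sihnRNPU library and 26533 in the siNC library. These reads were not whole in the siNC library, a form that arises when a read is split between genes, so both values are less certain than their interval. The gene is listed at chromosome 10, positions 31608141 to 31818742 of GRCh37, on the plus strand. Of all genes, CASP4 (111 FPKM with sihnRNPU, 123 FPKM with siNC) and FLNA (114 FPKM with sihnRNPU, 133 FPKM with siNC) lay nearest to ZEB1 in siNC level and FPKM ratio, over these 2 libraries.

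ZEB1-AS1, a noncoding RNA listed 117 bases away on the minus strand, differed in the other direction. It stood at 6.27 FPKM in the sihnRNPU library, against 2.93 FPKM in the siNC library, an FPKM ratio of 2.14 with a counting interval of 1.82 to 2.52. This rested on 552 reads in the sihnRNPU library and 206 in the siNC library. The interval does not overlap that of ZEB1. Its log2 ratio of (FPKM + 1) was 0.89, so ZEB1-AS1 was not called at least 2-fold higher. The listed spans of ZEB1 and ZEB1-AS1 do not overlap, but the sources used here do not say whether reads were assigned by strand. The transcript LOC100996668, listed inside the ZEB1 span, had 1.27 FPKM with sihnRNPU and 1.36 FPKM with siNC. ZEB1-AS1 and LOC100996668 were singled out with their values known.

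ZEB2, the second ZEB factor, was listed at 0 in both libraries. A count of 0 allows up to 3 reads, or 0.00786 FPKM in the sihnRNPU library and 0.00984 FPKM in the siNC library for its longest GENCODE coding transcript. The table lists ZEB2 over 9007 bases, 6.62% of the RefSeq gene span, so the 0 may cover only that stretch. Of the SNAIL factors, SNAI1 (chromosome 20, positions 48599513 to 48605423 of GRCh37) stood at 1.44 FPKM in the sihnRNPU library and 1.31 FPKM in the siNC library, on 98 and 71 reads. Its FPKM ratio of 1.10 had a counting interval of 0.804 to 1.52, so a difference was not detectable at this depth, and one of up to 1.52-fold was within the interval. The 7 genes within 250 kb of SNAI1 with a mean of at least 1 FPKM, CEBPB among them, all had log2 ratios below 0. Among all genes with such a mean, 50.0% did. Some of the 7 are overlapping genes that can share reads, so these are not 7 separate values. CEBPB stood at 25.5 FPKM with sihnRNPU and 33.2 FPKM with siNC. CEBPB was named with its values known. SNAI2 had 3 reads in the sihnRNPU library (0.0357 FPKM) and was listed at 0 in the siNC library, where 0 reads allow up to 0.0447 FPKM at the same recovered length. TWIST1, a basic helix-loop-helix factor, was listed at 0 in both. A count of 0 allows it up to 0.0452 FPKM with sihnRNPU and 0.0566 FPKM with siNC. Its listed span of 117712 bases is far longer than the RefSeq gene span of 4590 bases, so which reads its row would have taken is uncertain.

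Vimentin mRNA was present at a low level. VIM, listed at chromosome 10, positions 17269934 to 17279592 of GRCh37, stood at 3.05 FPKM in the sihnRNPU library, against 3.58 FPKM in the siNC library, on 317 and 297 reads. The FPKM ratio of 0.853 had a counting interval of 0.726 to 1.002, and the log2 ratio was -0.18. VIM exceeded 57.9% of listed mRNAs in the sihnRNPU library and 59.2% in the siNC library, many of which were at 0. FN1 was listed at 0 in both libraries. With its long mRNA, 0 reads allow at most 0.00846 FPKM with sihnRNPU and 0.0106 FPKM with siNC. CDH2 was also at 0 in both, which allows up to 0.0174 FPKM with sihnRNPU and 0.0218 FPKM with siNC. Its listed span covered 35.1% of the RefSeq gene span. CDH1, the epithelial cadherin gene that these factors repress, was likewise listed at 0 in both libraries over a span equal to 100% of RefSeq's. It was singled out after its value was seen.

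EMP1 was the 1 gene of the 10 that differed at least 2-fold by the call rule. It stood at 16.0 FPKM in the sihnRNPU library, against 57.5 FPKM in the siNC library, 27.8% of the control level. The FPKM ratio of 0.278 had a counting interval of 0.268 to 0.289, and the log2 ratio of (FPKM + 1) was -1.78. Among the 7945 genes that reached 5 FPKM in either library, EMP1 had the 2nd lowest log2 ratio, just below HNRNPU, the 3rd lowest at -1.65. EMP1 rested on 3569 recovered reads with sihnRNPU and 10246 with siNC, at a recovered length of 5608 bases. Recovered reads and lengths could be off together by a whole factor.

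**Figure D2:**
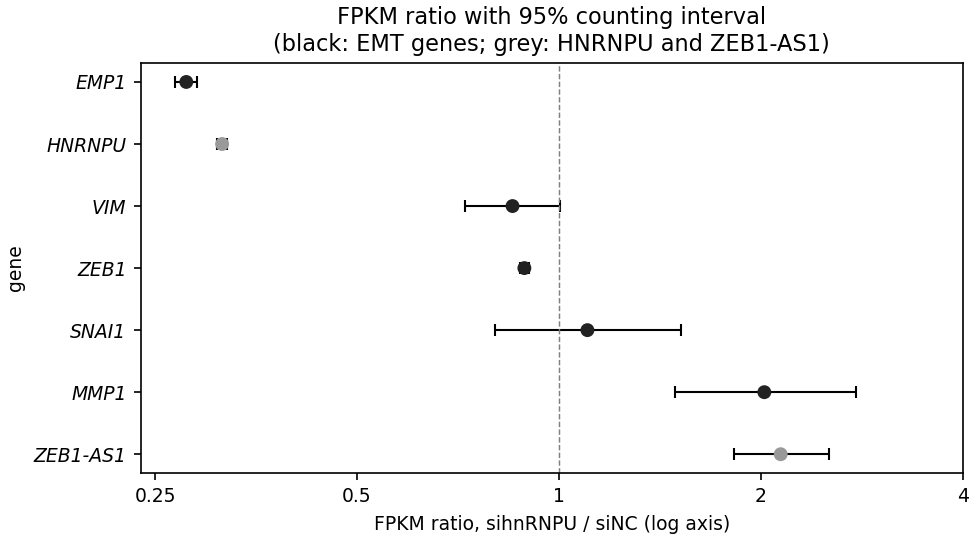
FPKM ratio of the sihnRNPU over the siNC library (log axis) for the EMT genes with at least 60 reads in each library (black) and for HNRNPU and ZEB1-AS1 (grey). Bars are exact 95% counting intervals and the dashed line is a ratio of 1. EMP1 at 0.278 lies left of HNRNPU at 0.315, ZEB1 and VIM lie just left of 1, and MMP1 at 2.02 lies right of 1.

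A gene was called when its log2 ratio was 1 or more in size and its higher value reached 5 FPKM. ZEB1 and EMP1 were the 2 of the 10 genes that reached 5 FPKM. Of these, 1 was called lower in the sihnRNPU library, against 0.755% of all genes tested, and 0 were called higher, against 0.315%. EMP1 was already known to be lower in these data when the 10 genes were chosen, so the count is a description only. The 5 genes with a mean of at least 1 FPKM had a median log2 ratio of -0.17, with 3 below 0 and 2 above, while all 11549 such genes had a median of 0.00 and 50.0% below 0.

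The other genes around EMP1 had smaller ratios. Of 8 genes listed within 250 kb, 3 had a mean of at least 1 FPKM. HEBP1 alone of the 8 reached the 5 FPKM minimum, so no other could be called. It was not called lower, against 0.755% called lower of all genes tested. HEBP1, a heme-binding protein gene, stood at 12.3 FPKM in the sihnRNPU library, against 19.5 FPKM in the siNC library, a log2 ratio of -0.62. KIAA1467 had a log2 ratio of -0.19 and the transcribed pseudogene HTR7P1 one of 0.07. These 3 genes were singled out with their values known. EMP1 is listed at chromosome 12, positions 13349660 to 13369708 of GRCh37, on the plus strand. Its relatives were also closer between the libraries. PMP22, a component of peripheral myelin, stood at 14.2 FPKM with sihnRNPU and 11.9 FPKM with siNC, and its FPKM ratio had a counting interval of 1.09 to 1.32. EMP3 stood at 13.7 FPKM with sihnRNPU and 12.4 FPKM with siNC, and EMP2 at 2.57 FPKM with sihnRNPU and 2.86 FPKM with siNC. The genes nearest to EMP1 in siNC level and FPKM ratio were LMAN2 (16.9 FPKM with sihnRNPU, 47.6 FPKM with siNC) and PDCD4 (21.5 FPKM with sihnRNPU, 53.1 FPKM with siNC). Both lay farther from EMP1 than CASP4 and FLNA did from ZEB1. Their log2 ratios were -1.44 for LMAN2 and -1.27 for PDCD4, against -1.78 for EMP1. LMAN2 encodes a cargo lectin of the secretory pathway and PDCD4 an inhibitor of translation initiation.

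MMP1, the collagenase gene at chromosome 11, positions 102660641 to 102668966 of GRCh37, was higher in the sihnRNPU library at a low level. It stood at 1.86 FPKM there, against 0.918 FPKM in the siNC library, on 152 and 60 reads. The FPKM ratio of 2.02 had a counting interval of 1.49 to 2.78. On the log2 (FPKM + 1) scale the ratio was 0.58, since the added 1 shrinks the difference of a gene at this level, and MMP1 missed the 5 FPKM minimum. This difference was already known when the 10 genes were chosen. MMP10, a stromelysin listed 9282 bases from MMP1 on chromosome 11, had 0.271 FPKM with sihnRNPU and 0.143 FPKM with siNC, and its FPKM ratio had an interval of 0.793 to 5.01 on 19 and 8 reads. MMP3, another stromelysin, had 0.261 FPKM with sihnRNPU and 0.0688 FPKM with siNC, and its ratio had an interval of 1.26 to 15.3 on 19 and 4 reads. MMP3 and MMP10 were singled out with their values known. Of 28 listed genes of matrix metalloproteinases, their inhibitors and an inducer, MMP1 not among them, 16 were at 0 in both libraries and 3 had a mean of at least 1 FPKM. These were TIMP1, the tissue inhibitor of metalloproteinases, at 44.1 FPKM with sihnRNPU and 67.0 FPKM with siNC (log2 ratio -0.59), the membrane protease gene MMP14 at -0.23, and the metalloproteinase inducer BSG at 0.20.

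**Figure D3:**
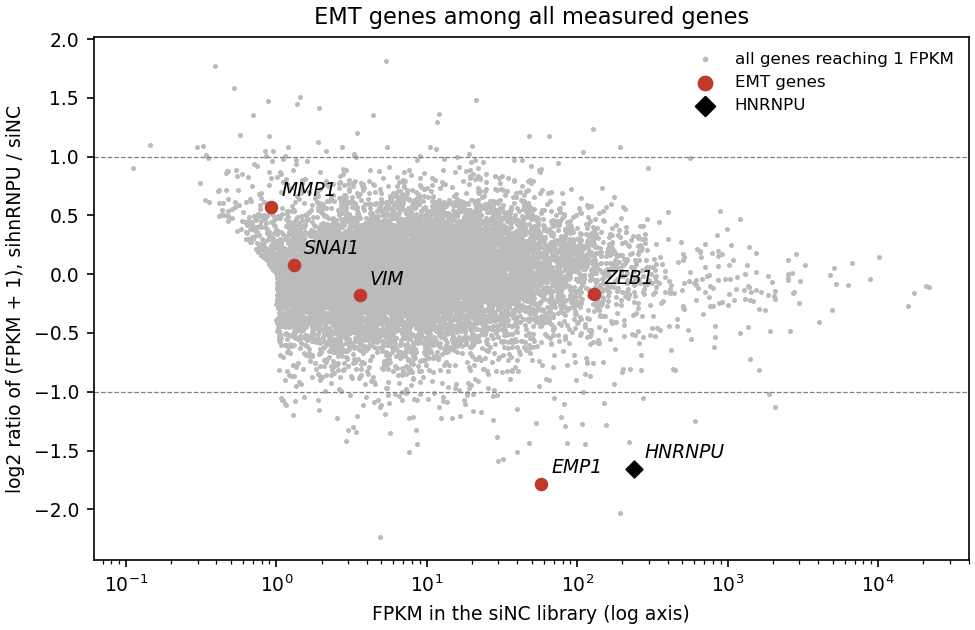
Log2 ratio of (FPKM + 1), sihnRNPU over siNC, against the siNC level (log axis) for genes reaching 1 FPKM in either library and above 0 in the siNC library (grey), with 5 EMT genes (red) and HNRNPU (diamond). Dashed lines are ratios of 1 and -1. EMP1 lies at -1.78 below the cloud near HNRNPU, while VIM, ZEB1 and SNAI1 lie within it.

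The mesenchymal and matrix genes beyond the 10 leaned lower in the sihnRNPU library. Of 46 such genes, 12 were at 0 in both libraries. Of 19 with a mean of at least 1 FPKM, 16 had a log2 ratio below 0, against 50.0% of all genes with such a mean. The other 3 lay above 0, and the median of the 19 was -0.39 (-0.11 with no minimum level). Of the 14 that reached 5 FPKM, 1 was called at least 2-fold lower, against 0.755% of all genes tested. This was CALD1, the gene of caldesmon, a regulator of actomyosin, at 13.2 FPKM with sihnRNPU and 39.7 FPKM with siNC. NT5E, an ecto-nucleotidase, had the next lowest log2 ratio, -0.87, at 0.642 FPKM with sihnRNPU and 2.01 FPKM with siNC. The highest were TAGLN (0.37), an actin-binding smooth muscle gene, and the actin-bundling FSCN1 (0.17). The laminin gene LAMB3 was abundant, at 127 FPKM with sihnRNPU and 148 FPKM with siNC. CALD1, and a low median of a related gene list, were already known in these data when this list was assembled.

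All 10 integrin genes with a mean of at least 1 FPKM had a log2 ratio below 0, with a median of -0.37, and 4 lay at -0.5 or less. Of all 11549 genes with such a mean, 50.0% lay below 0 and 740 lay at -0.5 or less. With no minimum level the median was -0.13. Integrins are the receptors that anchor cells to fibronectin, laminin and collagen. ITGB1, the shared beta chain, was the most abundant at 855 FPKM with sihnRNPU and 1212 FPKM with siNC, although its reads had the fractional form of divided reads. ITGA5, whose product pairs with it as the fibronectin receptor, stood at 24.3 FPKM with sihnRNPU and 29.3 FPKM with siNC. ITGB5 (5.35 FPKM with sihnRNPU, 10.9 FPKM with siNC) and ITGA3 (3.92 FPKM with sihnRNPU, 8.05 FPKM with siNC) had the lowest log2 ratios, -0.91 and -0.88. Neither was called, since the added 1 FPKM shrinks ratios at this level, but their FPKM ratios were 0.490 for ITGB5 and 0.487 for ITGA3, and with a pseudocount of 0.1 FPKM both would be called lower. The highest ratios were those of ITGAE (-0.02) and ITGAV (-0.11).

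**Figure D4:**
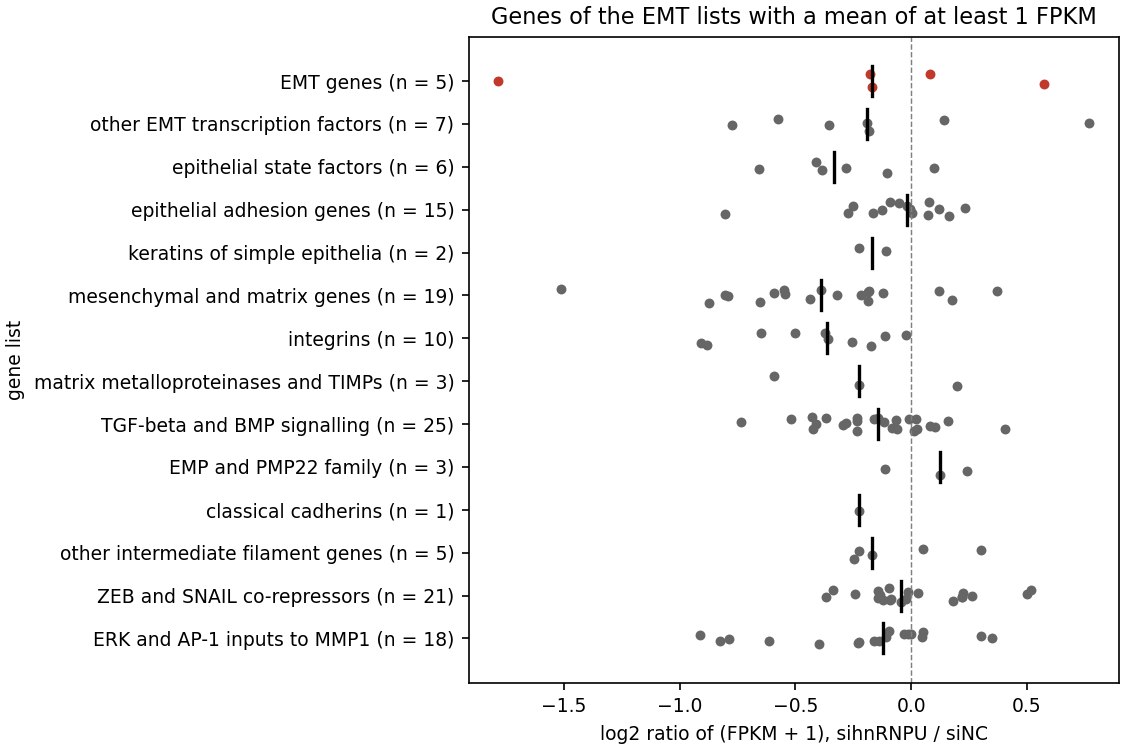
Log2 ratio of (FPKM + 1), sihnRNPU over siNC, of each gene with a mean of at least 1 FPKM in the 10-gene EMT set (red) and in 13 related lists (grey), spread vertically for legibility, with the list median as a black bar. The integrin points all lie left of 0 with a median of -0.37, and the EMT genes run from -1.78 (EMP1) to 0.58 (MMP1).

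Other EMT transcription factors were mostly absent or spread around 0. Of 18, 9 were at 0 in both libraries and 7 had a mean of at least 1 FPKM, of which 5 were below 0. TCF3, which encodes the E-box-binding E2A proteins, was the highest at 23.3 FPKM with sihnRNPU and 13.3 FPKM with siNC (log2 ratio 0.77, counting interval of the FPKM ratio 1.66 to 1.86), followed by TCF12 at 0.14. The chromatin-binding HMGA2 was the lowest at 33.6 FPKM with sihnRNPU and 58.2 FPKM with siNC (-0.77), followed by RUNX2, the osteoblast factor, at -0.58. The most abundant was ETS1, at 66.8 FPKM with sihnRNPU and 76.3 FPKM with siNC.

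Genes of the epithelial state lay near 0 or leaned lower in the sihnRNPU library. Of 18 epithelial state factors, 9 were at 0 in both libraries and 6 had a mean of at least 1 FPKM, of which 5 were below 0. Their median was -0.33, or -0.11 with no minimum level and -0.13 with a pseudocount of 5 FPKM. KLF4 (-0.66) and KLF5 (-0.41), Kruppel-like factors of gut epithelium, were the lowest. Both were at low levels, KLF4 at 0.882 FPKM with sihnRNPU and 1.97 FPKM with siNC, and KLF5 at 1.07 FPKM with sihnRNPU and 1.76 FPKM with siNC. The splicing regulator ESRP2 was the highest at 5.77 FPKM with sihnRNPU and 5.33 FPKM with siNC (0.10), followed by CDX2, the intestinal homeobox factor, at 4.41 FPKM with sihnRNPU and 4.83 FPKM with siNC (-0.11). Of 30 epithelial adhesion genes, 15 had a mean of at least 1 FPKM, with 9 below 0, 6 above and a median of -0.02. When both libraries were rescaled to an equal FPKM sum, 7 lay below 0 and the median was 0.01. The alpha-catenin gene CTNNA1 had a log2 ratio of -0.27. The protease inhibitor SPINT1 (0.23) and the p120 catenin gene CTNND1 (0.16) were the highest. CTNNA1 and CTNNB1 (beta-catenin) were the most abundant, with CTNNB1 at 44.4 FPKM with sihnRNPU and 42.1 FPKM with siNC. Of 7 keratin genes of simple epithelia, KRT18 and KRT8 alone averaged at least 1 FPKM, with log2 ratios of -0.11 and -0.23.

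Nearly all cofactors and regulators of ZEB1 and SNAI1 were expressed. Of 22 co-repressors and regulators, 21 had a mean of at least 1 FPKM, with 13 below 0, 8 above and a median of -0.04. The histone deacetylase genes were the highest, HDAC1 at 51.4 FPKM with sihnRNPU and 35.6 FPKM with siNC (0.52) and HDAC2 at 43.2 FPKM with sihnRNPU and 30.3 FPKM with siNC (0.50). BTRC, the ubiquitin ligase subunit that recognises phosphorylated SNAI1, was the lowest (-0.37), followed by the kinase gene LATS2 (-0.34). KDM1A, the histone demethylase recruited by SNAI1, was the most abundant at 102 FPKM with sihnRNPU and 87.2 FPKM with siNC. EZH2, the polycomb methyltransferase, stood at 43.4 FPKM with sihnRNPU and 51.6 FPKM with siNC.

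TGF-beta ligands, receptors and SMADs, which feed the EMT programme, had a median of -0.14 over 25 of 37 genes, with 18 below 0 and 7 above (21 below 0 after rescaling by the median ratio). Among ligands, TGFB1 was the highest of the list, at 29.9 FPKM with sihnRNPU and 22.3 FPKM with siNC (0.40). Among receptors, BMPR1A was the next highest (0.16), and the co-receptor gene TGFBR3 was the second lowest (-0.52). The inhibitory SMAD7, itself a TGF-beta target, was the lowest at 0.602 FPKM with sihnRNPU and 1.67 FPKM with siNC (-0.74, counting interval of the FPKM ratio 0.285 to 0.453). SMURF2, a ubiquitin ligase of the pathway, was the most abundant at 134 FPKM with sihnRNPU and 178 FPKM with siNC. Of 19 genes of the ERK and AP-1 route, which drives MMP1 in many cells, 18 had a mean of at least 1 FPKM, with 14 below 0, 4 above and a median of -0.12 (12 below 0 after rescaling to an equal FPKM sum). EGFR was the lowest at 2.48 FPKM with sihnRNPU and 5.56 FPKM with siNC (-0.91), followed by the ERK-induced factor ETV5 (-0.83). JUNB (0.35) and ETS2 (0.30) were the highest. The AP-1 subunit genes JUN (309 FPKM with sihnRNPU, 333 FPKM with siNC) and FOSL1 (128 FPKM with sihnRNPU, 169 FPKM with siNC) were the most abundant. With the added 1 FPKM, no transcription factor, epithelial gene, integrin, co-repressor, TGF-beta or ERK gene of these lists was called. Those that reached 5 FPKM were 6 transcription factors, 1 epithelial state factor, 7 epithelial adhesion genes and 1 keratin gene. They also included 6 integrins, 20 co-repressors and regulators, 12 TGF-beta genes and 15 ERK and AP-1 genes. Of all genes tested, 0.755% were called lower and 0.315% higher, so the lack of calls is a description only. EGFR, with an FPKM ratio of 0.447, would be called lower with a pseudocount of 0.5 or 0.1 FPKM.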

How the data were processed

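Trizol was used to extract the RNA and libraries were made by a Life Technologies method, per the labels' protocols. Expression values are FPKM, computed and deposited by the authors, 1 for each gene in each library. The submitters' processing notes name Bowtie and GRCh37. The sources used here do not give the counting program, the annotation or the use of strand.

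Depth was recovered from short noncoding genes, where FPKM times span came in whole multiples of 1 read (within 1e-06 for 43.6% of such genes in the sihnRNPU library and 42.0% in the siNC library). Each FPKM was next expressed as reads over length, both whole or simple fractions, which succeeded for 96.9% of 17530 genes above 0 in both libraries. Lengths that differed from GENCODE 29 coding lengths by over 30% were scaled by a simple factor where this brought them within 15%. Otherwise the length was kept, as for CTNND1 at 152400 bases, so reads and intervals of such genes are less certain. Depth, read ratios and the call rule were checked on simulated libraries of whole reads. Split reads, recovered lengths and the scaling of lengths were not part of that check. The multiple-length rule was set after values were seen. Ratios are log2 of (FPKM + 1), sihnRNPU over siNC, with no further scaling. Genes named were the 10 members, HNRNPU, the 2 highest and 2 lowest ratios and 2 highest siNC levels of each list (mean of at least 1 FPKM), called genes, and the 2 nearest genes of abundant members. Of the genes this rule names, 2 are not reported here. Members, lists and motifs were chosen with earlier results of these data known. All 312 list names matched. The 28 rows whose symbols had become dates were left out. Alternatives were other pseudocounts, 3 rescalings and other minimum levels. Python 3.11.15, numpy 2.4.6, pandas 2.3.3 and scipy 1.17.1 were used.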

Additional observations from a re-analysis of the deposited data

How the results depend on the processing

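No paired analysis was possible because the 2 conditions had a single library each, and leaving out a library would leave a condition empty. The counts of EMT genes called at least 2-fold lower (1) and higher (0) were the same at pseudocounts of 0.1, 0.5 and 5 FPKM, under the 3 rescalings and at other minimum levels. The median log2 ratio of the measured EMT genes, -0.17, was -0.21 after rescaling by the median ratio and -0.98 among the 2 genes with a mean of at least 5 FPKM, where fewer genes enter, and was -0.09 with a pseudocount of 5 FPKM and -0.06 with no minimum level. EMP1 was at -1.57 with a pseudocount of 5 FPKM and -1.84 with 0.1 FPKM, and MMP1 at 0.21 and 0.94, which follows from the added constant. The 3 rescalings moved every gene by at most 0.04 in size on the log2 scale. In the other lists, 1 gene was called lower as reported and with a pseudocount of 5 FPKM. With 0.5 FPKM 2 were called lower and with 0.1 FPKM 4, and 0 were called higher under each. These list counts were added after seeing the data. Of all 7945 genes tested, 60 were called lower as reported, 24 with 5 FPKM, 73 with 0.5 FPKM and 85 with 0.1 FPKM. Those called higher were 25, 9, 29 and 36 in the same order. Of 103 list medians under alternatives, 4 changed sign, all to values within 0.10 of 0. Depth limited SNAI1, SNAI2, MMP3 and MMP10, whose reads were few.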

Other observations

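Other cadherin genes were also mostly silent, while other intermediate filament genes, keratins aside, ranged from 0 to abundant. Of 16 further cadherin genes looked up, CDH1, CDH3 and CDH11 not among them, 13 were listed at 0 in both libraries. CDH24 alone of the 16 averaged at least 1 FPKM, at 1.27 FPKM with sihnRNPU and 1.66 FPKM with siNC. Of 13 other genes of the intermediate filament family and its linkers, 7 were at 0 in both libraries and 5 had a mean of at least 1 FPKM. The lamin genes LMNB2 (log2 ratio 0.30), LMNB1 (-0.22) and LMNA (-0.25) spanned the range of these 5, and the most abundant was LMNB1, at 55.9 FPKM with sihnRNPU and 65.4 FPKM with siNC. NES, which encodes nestin, stood at 6.38 FPKM with sihnRNPU and 7.30 FPKM with siNC, above VIM in both libraries.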
